A study of Homo sapiens with 8 samples.

Results

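Cells of a cisplatin-resistant clone derived from the HPV- squamous cell carcinoma line UPCISCC89 (called SCC89) were compared with their parental cells. The comparison rests on 4 of the 8 libraries of the series, taken by their group labels: 2 of the chosen resistant clone and 2 of parental SCC89. The other 4 libraries hold an HPV+ line, UDSCC2 (SCC2), and its own resistant clone, and are used below to show where the HPV- clone differs. Per the study's methods, the cells were kept for a long period in rising doses of cisplatin, single cells were grown out by dilution under the drug, and the chosen clone was then grown without cisplatin. The resistant group is therefore 1 clone and the parental group a cell population that had not been through this selection, so effects of the drug, of cloning and of time in culture cannot be told apart. Whether both libraries of a group were made from independent cultures is stated nowhere in the sources, and the p-values therefore reflect only how much these samples vary, which may be technical variation. The HPV+ line was selected at higher doses than the HPV- line, so line, HPV status and dose cannot be told apart where the 2 lines are compared.

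Cisplatin forms adducts on DNA that stall replication and transcription, and cells can survive it by taking up less of it, binding it, repairing or bypassing the adducts, or failing to start apoptosis. Squamous epithelium is built from basal cells that express TP63 and basal keratins and that, on leaving the basal layer, switch on the genes of the cornified envelope, the cross-linked protein shell of the dead outer layer. Ligands of the epidermal growth factor receptor (EGFR), often made by the tumor cells themselves, drive growth of these cells through the ERK kinases.

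Each library held between 20250246 and 25301746 read pairs, summed per gene from the deposited estimated counts and given here scaled to the library size as CPM. Genes were compared with the quasi-likelihood test of edgeR, and a gene is said to have risen or fallen in the clone, or to have passed, where its Benjamini-Hochberg adjusted p was under 0.05 and its log2 fold change was beyond 1 in size. Of 15221 genes tested, 923 rose (6.06%) and 795 fell (5.22%), and without resistant library 1 the number that rose was 613. The median log2 fold change of all genes was 0.04. Fold changes below are log2 of resistant over parental with their standard error. Libraries of a group differed by more than counting noise (chi-square per gene of 59.8 in parental and 35.4 in resistant cells) and correlated at 0.979 (parental) and 0.978 (resistant) over log2 CPM across genes, the clone and its parental cells at 0.941 to 0.952, and HPV- with HPV+ libraries at 0.761 to 0.787. Reads of mitochondrial genes made up 1.80 and 2.09% of the parental libraries and 5.26 and 3.42% of the resistant ones, and the part of this in the results was not tested. The groups did not overlap for 9310 genes (61.2%), so a lack of overlap alone says little here. It was also required of the genes named by the size of their change, such as KRTDAP and ELF3. A gene that passed is likely to show it, so below it describes the values and adds no support.

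Both groups carried squamous epithelial transcripts. All 16 markers of squamous epithelium were above 1 CPM in at least 1 library, with TP63 at 361 and 442 CPM in the parental and 271 and 230.1 CPM in the resistant libraries. Their summed level was 26769 to 27636 CPM in parental cells and 6652 to 8482 CPM in the clone, where 8 of 16 fell and 1 rose. Most of the parental sum came from the keratins KRT5, KRT14, KRT6A and KRT17, so the sum says little about the other markers. Of these others PKP1 and COL17A1 were among those that fell, and CDH1 rose. EPCAM was at 124 and 151 CPM in parental and 149 and 155 CPM in resistant libraries. In bulk RNA, fewer cells expressing a gene and less RNA of it per cell cannot be told apart. Markers of other cell types were low. Of 10 fibroblast markers, 4 including COL3A1 and PDGFRA were at 0 in all 4 libraries, and the summed level was 8.30 to 9.99 CPM in parental cells and 18.2 to 18.5 CPM in the clone. The 8 endothelial markers summed to no more than 1.39 CPM in any library. Of the 10 leukocyte markers, MS4A1 was at 0 and PTPRC was at 0 in 3 libraries, and the summed 156 to 164 CPM in parental cells and 56.0 to 81.8 CPM in the clone came mostly from CD68, a lysosomal protein that is not limited to leukocytes. The 9 melanocyte and neural markers summed to between 4.43 and 6.57 CPM.

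Many genes of squamous differentiation other than the keratins fell in the clone. Of 32 genes of the cornified envelope and terminal differentiation, 13 fell and 2 rose, with a median log2 fold change of -1.001, against 0.04 over all genes. Leaving out any 1 of the 4 HPV- libraries left 13 to 15 lower, while the 2 that rose, CNFN and ALOX12B, were then 0 or 1. SPRR1B, a small proline-rich precursor of the envelope, held 121 and 114 CPM in the parental libraries and 0.0504 and 0 CPM in the resistant libraries. This was 4800 read pairs against 1, a ratio of 4684 with an exact 95% counting interval of 840.3 to 185042. Involucrin (IVL), an early scaffold protein of the envelope, was low in parental cells, at 1.01 and 1.44 CPM, and had no read pair in either resistant library, which makes it at least 16.6-fold lower when 3 read pairs over the whole group are taken as the floor. SPRR2D (at least 23.7-fold) and sciellin (SCEL, at least 39-fold) were likewise without a read pair in the clone.

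KRTDAP, a secreted peptide of differentiating keratinocytes, was at 25.8 and 16.4 CPM in the parental libraries and 0.101 and 0.15 CPM in the resistant libraries (log2 fold change -7.33 ± 0.65, adjusted p = 0.000208). ABCA12, which moves lipids into the lamellar granules of the upper epidermis, went from 5.39 and 6.18 CPM to 0.151 and 0.199 CPM (log2 fold change -5.002 ± 0.38, adjusted p = 3.8e-05). CSTA, the protease inhibitor cystatin A, fell from 113 and 51.9 CPM to 24.1 and 25.9 CPM (log2 fold change -1.72 ± 0.31, adjusted p = 0.00471, -1.06 without parental library 1). In each of these genes both resistant libraries lay below both parental ones. CSTA, IVL, SPRR2D, SCEL and the 2 genes that rose were named after their values were seen. PI3, the elastase inhibitor elafin, which is also cross-linked into the envelope, held 51.2 and 41.97 CPM in parental and 0.101 and 0.249 CPM in resistant cells (log2 fold change -8.01 ± 0.55, adjusted p = 3.35e-05), where 7 read pairs were left and the log2 fold change was -8.79 without resistant library 2.

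Several transcription factors of the squamous lineage fell as well. Of 28 squamous lineage factors, 10 fell, 3 rose and the others did not pass, with a median of -0.52. ZNF750, a p63 target needed for late differentiation, was at 6.57 and 8.43 CPM in parental and 0.302 and 0.299 CPM in resistant cells (log2 fold change -4.62 ± 0.52, adjusted p = 0.000349). OVOL1, a zinc-finger repressor that takes keratinocytes out of the cycle, was at 47.5 and 42.4 CPM in parental and 4.63 and 9.42 CPM in resistant cells (log2 fold change -2.68 ± 0.28, adjusted p = 0.00026, -3.29 without resistant library 2). KLF4, a barrier regulator, was at 14.2 and 17.4 CPM in parental and 5.99 and 7.08 CPM in resistant cells (log2 fold change -1.27 ± 0.19, adjusted p = 0.00114). The groups did not overlap for any of the 3. SOX2, a factor of squamous progenitors that lies in a commonly gained region of squamous tumors, was low already in parental cells at 1.82 and 1.94 CPM, and 1 read pair of it was left in the clone against 77, a ratio of 75.1 with a 95% counting interval of 13.1 to 3006. TP63 itself had a log2 fold change of -0.68 ± 0.15 (adjusted p = 0.00949), short of the fold threshold, and is named as a marker. BNC1, a factor of keratinocyte proliferation named after its value was seen, fell by 1.32 on the log2 scale (adjusted p = 0.000971).

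Of the same list, 2 epithelial factors moved the other way beyond the spread of their libraries. ELF3, an ETS factor of epithelial cells, rose from 5.39 and 3.697 CPM to 74.6 and 77.2 CPM (log2 fold change 4.07 ± 0.24, adjusted p = 1.82e-05). Its relative EHF, named after its value was seen, rose from 18.6 and 22.6 CPM to 73.8 and 62.3 CPM (log2 fold change 1.72 ± 0.21, adjusted p = 0.000483). For both genes every resistant library was above every parental one, and the resistant libraries lay close together.

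**Figure D1:**
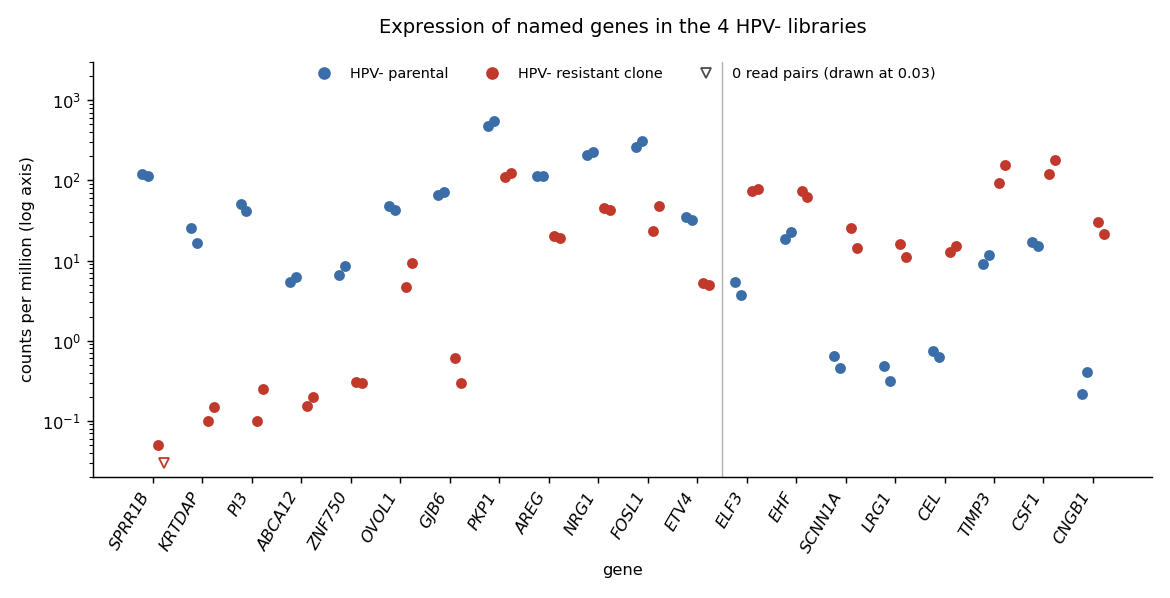
Levels (CPM) of 20 genes in the 4 HPV- libraries on a log axis, with parental libraries in blue and libraries of the resistant clone in red, 1 point per library. Genes left of the vertical line fell and genes right of it rose, and for none of the 20 do the 2 groups overlap. For genes named by size this was a condition of selection, and it held for 61.2% of all genes.

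Genes of gap and tight junctions moved in both directions. Of 29 tested 5 fell (17.2%, against 5.22% of all genes) and 3 rose (10.3%, against 6.06%), with a median of 0.43, above that of all genes. The 5 that fell encode connexins, a group made after their values were seen. The 5 remained at 5 when any 1 HPV- library was left out, whereas the 3 that rose became 0 without parental library 2 and 1 without parental library 1 or by DESeq2. GJB6 (connexin 30) was at 65.3 and 70.8 CPM in parental cells and 0.604 and 0.299 CPM in the clone (log2 fold change -7.22 ± 0.26, adjusted p = 3.35e-07, -7.81 without resistant library 1). GJA1, the widely expressed connexin 43, was at 81.99 and 89.6 CPM in parental and 19.6 and 14.4 CPM in resistant cells (log2 fold change -2.34 ± 0.19, adjusted p = 5.21e-05). Resistant libraries lay below parental ones for every connexin that fell. Among 24 genes of desmosomes and adherens junctions, 4 fell and 2 rose, the latter 1 without parental library 1 or resistant library 2 and 3 without resistant library 1. The desmosomal plaque protein PKP1 fell from 475 and 545 CPM to 111 and 122 CPM (log2 fold change -2.13 ± 0.16, adjusted p = 3.35e-05) and the desmosomal cadherin DSG1 from 7.104 and 7.62 CPM to 0.453 and 0.848 CPM (log2 fold change -3.49 ± 0.403, adjusted p = 0.000364). N-cadherin (CDH2), a cadherin of mesenchymal and neural cells, rose from 2.19 and 2.93 CPM to 25.2 and 14.9 CPM (log2 fold change 2.96 ± 0.27, adjusted p = 0.000115), and its groups did not overlap. E-cadherin (CDH1) was also higher, at 87.8 and 108 CPM in parental and 174 and 221 CPM in resistant cells (log2 fold change 1.01 ± 0.16, adjusted p = 0.00203), but its call was at the fold threshold and was lost with an offset for length, and the log2 fold change ran from 0.82 to 1.17 when single libraries were left out. Of 14 S100 genes, calcium-binding proteins many of which sit in the epidermal differentiation complex on chromosome 1, 7 fell and none rose in edgeR (0 at an unadjusted p under 0.05 and 0 by DESeq2).

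Some promoters of the envelope genes hold a shared short sequence. Of 11344 tested protein-coding genes with a RefSeq promoter (build GRCh38.p14), the 250 bases before the start were searched for TGACTCA, the binding motif of AP-1, a dimer of FOS and JUN proteins, and for its reverse complement TGAGTCA. The motif stood in 2.77% of all of them, in 7.14% of the 574 that fell (41 genes) and in 1.46% of the 687 that rose (10 genes). The related cyclic AMP response element, TGACGTCA, stood in 2.77% of all, 4.70% of those that fell and 2.04% of those that rose, and the E-box CACGTG in 8.67%, 9.23% and 7.71%. The motifs were chosen after the values of the genes were seen, no test was made, and a match says only that these letters are present. The 6 genes with the motif whose fitted fold changes were lowest were all envelope or keratinocyte differentiation genes, with the limit that the order of IVL and SCEL, which had no read pair in the clone, depends on the prior count of the fit. Their upstream 250 bases are shown 5′ to 3′ with the motif in capitals, followed by the promoter of AREG, a ligand described below, with its cyclic AMP response element in capitals. They lie at chr1:153030953-153031202, chr13:77535456-77535705, chr1:152983831-152984080 and chr1:152908296-152908545 on the forward strand, at chr19:35490465-35490714 and chr19:35528312-35528561 on the reverse strand and at chr4:74444886-74445135 on the forward strand.
SPRR1B: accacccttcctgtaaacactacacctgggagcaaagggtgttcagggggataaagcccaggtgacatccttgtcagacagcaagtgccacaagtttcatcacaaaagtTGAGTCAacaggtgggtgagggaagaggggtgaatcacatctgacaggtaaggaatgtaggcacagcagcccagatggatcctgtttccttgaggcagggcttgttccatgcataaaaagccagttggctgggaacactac
SCEL: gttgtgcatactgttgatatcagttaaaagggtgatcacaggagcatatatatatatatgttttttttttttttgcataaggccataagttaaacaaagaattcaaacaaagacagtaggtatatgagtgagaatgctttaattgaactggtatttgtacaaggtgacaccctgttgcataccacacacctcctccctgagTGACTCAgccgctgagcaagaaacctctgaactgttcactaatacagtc
SPRR1A: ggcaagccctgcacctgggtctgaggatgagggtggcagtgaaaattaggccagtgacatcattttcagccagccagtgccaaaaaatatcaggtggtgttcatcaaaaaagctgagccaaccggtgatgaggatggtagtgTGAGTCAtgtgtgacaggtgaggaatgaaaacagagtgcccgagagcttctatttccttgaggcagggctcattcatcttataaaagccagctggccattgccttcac
IVL: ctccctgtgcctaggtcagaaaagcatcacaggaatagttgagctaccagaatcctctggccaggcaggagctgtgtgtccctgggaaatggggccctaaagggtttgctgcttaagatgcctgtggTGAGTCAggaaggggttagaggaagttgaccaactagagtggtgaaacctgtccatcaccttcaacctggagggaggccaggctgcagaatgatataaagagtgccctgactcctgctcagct
KRTDAP: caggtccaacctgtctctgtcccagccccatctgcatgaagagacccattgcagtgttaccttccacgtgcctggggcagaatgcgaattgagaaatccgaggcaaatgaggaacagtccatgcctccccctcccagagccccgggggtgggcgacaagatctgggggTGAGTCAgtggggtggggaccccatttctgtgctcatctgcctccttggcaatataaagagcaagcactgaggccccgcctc
SBSN: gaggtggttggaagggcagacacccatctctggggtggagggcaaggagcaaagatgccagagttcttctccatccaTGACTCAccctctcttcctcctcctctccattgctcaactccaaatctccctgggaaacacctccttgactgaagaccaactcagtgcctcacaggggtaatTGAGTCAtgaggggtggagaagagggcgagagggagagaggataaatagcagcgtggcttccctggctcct
AREG: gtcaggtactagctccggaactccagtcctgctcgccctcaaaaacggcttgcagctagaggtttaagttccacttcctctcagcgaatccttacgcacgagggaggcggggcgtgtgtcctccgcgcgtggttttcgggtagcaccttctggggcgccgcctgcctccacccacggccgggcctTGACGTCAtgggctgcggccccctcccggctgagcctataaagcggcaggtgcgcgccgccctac
The motif began 141 bases before the start of SPRR1B, 49 before SCEL, 108 before SPRR1A, 123 before IVL and 82 before KRTDAP, and SBSN held it at both 173 and 71 bases. SPRR1A had only 50% of its annotated transcripts in the files, so its own level is uncertain.

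EGFR ligands and ERK targets formed the next group. The median log2 fold change of their list was -0.26, with 11 genes above 0 and 20 below 0. Of 32 genes of the EGFR family, its ligands and ERK targets, 12 fell and 1 rose, and 9 to 11 fell when any 1 HPV- library was left out. Amphiregulin (AREG), a ligand of EGFR, was at 114 and 113 CPM in parental and 20.04 and 19.3 CPM in resistant cells (log2 fold change -2.53 ± 0.16, adjusted p = 1.56e-05). Neuregulin 1 (NRG1), the ligand of ERBB3 and ERBB4, was at 208 and 226 CPM in parental and 44.8 and 42.7 CPM in resistant cells (log2 fold change -2.31 ± 0.14, adjusted p = 1.33e-05). HBEGF, a heparin-binding EGFR ligand, was at 14.8 and 14.8 CPM in parental and 4.43 and 2.99 CPM in resistant cells (log2 fold change -1.998 ± 0.31, adjusted p = 0.00167). For these ligands, libraries of a group lay close together and the groups were far apart. TGFA, also an EGFR ligand, fell by 1.15 on the log2 scale (from 55.3 and 60.3 CPM to 23.7 and 28.4 CPM, adjusted p = 0.00129). The receptor EGFR was at 691 and 1008 CPM in parental and 837 and 682 CPM in resistant cells, with overlapping groups and a log2 fold change of -0.16 ± 0.196 (adjusted p = 0.575), with 69% of its annotated transcripts in the files.

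Downstream, FOSL1, which encodes the AP-1 subunit Fra-1 and is induced by ERK, fell from 259 and 308 CPM to 23.2 and 47.7 CPM (log2 fold change -2.998 ± 0.36, adjusted p = 0.00114). The PEA3-family factor ETV4 fell from 34.7 and 32.3 CPM to 5.29 and 4.89 CPM (log2 fold change -2.72 ± 0.21, adjusted p = 3.97e-05). The ERK phosphatases DUSP6 and DUSP7, feedback inhibitors that ERK itself induces, fell from 61.1 and 64.3 CPM to 26.04 and 15.9 CPM (log2 fold change -1.58) and from 82.6 and 99.95 CPM to 34.6 and 39.8 CPM (log2 fold change -1.296). No resistant library of these 4 genes reached a parental one, although in FOSL1 the resistant libraries stood further apart than the parental ones (log2 fold change -3.62 without resistant library 2). FOS, another AP-1 gene, was at 101 and 109 CPM in parental and 210.1 and 113 CPM in resistant cells (log2 fold change 0.62 ± 1.01) and JUNB at 441 and 300.4 CPM in parental and 348 and 355 CPM in resistant cells (log2 fold change -0.08 ± 0.27), both without passing. SPRY1, another feedback inhibitor and the only member of the list that rose, went from 0.748 and 0.947 CPM to 5.14 and 5.93 CPM (log2 fold change 2.696 ± 0.42, adjusted p = 0.00164). HBEGF, TGFA, EGFR, DUSP6, FOS, JUNB and SPRY1 were named after their values were seen. EGR1, a direct ERK target described under the other observations, was higher in the clone without passing. Tissue factor (F3), which starts coagulation, and PLAUR, the urokinase receptor, belong to other lists. Both have the AP-1 motif upstream of their start, as had 41 genes that fell and 10 that rose. A part of AP-1 in their change was not tested. F3 fell from 1087 and 1399 CPM to 261 and 373 CPM (log2 fold change -1.97 ± 0.200, adjusted p = 0.000204) and PLAUR from 19.6 and 18.8 CPM to 5.79 and 7.33 CPM (log2 fold change -1.55 ± 0.22, adjusted p = 0.00106, named after its value was seen).

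In the HPV+ line AREG, HBEGF and TGFA went the opposite way. Between the lines the change on resistance differed, by the interaction test, for 1000 genes that were higher in the HPV- line relative to the HPV+ line (6.57%) and 787 that were lower (5.17%), and among the genes of the EGFR list for 14 in the lower and 0 in the higher direction (8 of the list rose and 2 fell in the HPV+ clone, where 3.4% of all genes rose and 4.6% fell). AREG in HPV+ cells was at 1.06 and 1.06 CPM in parental and 14 and 17.8 CPM in resistant libraries, a log2 fold change of 3.901 ± 0.195, and the difference between the lines was -6.43 ± 0.25, adjusted p = 8.61e-07. HBEGF rose there by 3.15 ± 0.32 (difference -5.15 ± 0.45, adjusted p = 9.11e-05) and TGFA by 1.12 ± 0.198 (difference -2.26 ± 0.26, adjusted p = 0.000447). In parental libraries AREG was thus higher in the HPV- line, and in the clones it was higher in the HPV+ line. NRG1 fell in both lines, with a log2 fold change of -1.02 ± 0.14 in HPV+ cells. F3 and PLAUR rose in the HPV+ clone, with log2 fold changes of 2.46 ± 0.21 and 2.003 ± 0.23.

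**Figure D2:**
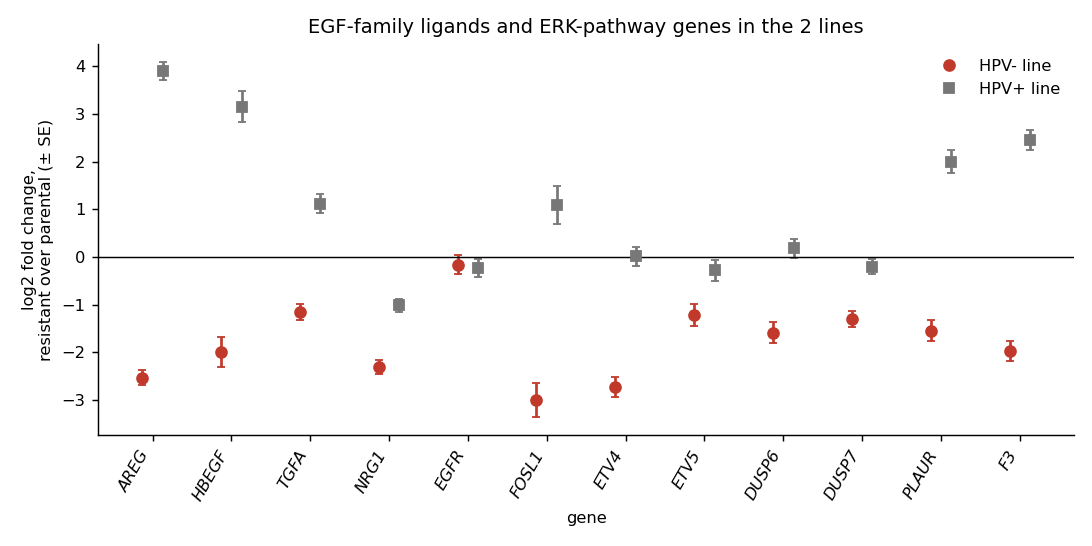
Log2 fold changes of resistant over parental cells, with standard errors, of EGF-family ligands, EGFR and ERK-pathway genes in the HPV- line (red circles) and the HPV+ line (grey squares). AREG, HBEGF, TGFA, PLAUR and F3 lie below 0 in the HPV- line and above 0 in the HPV+ line, and NRG1 lies below 0 in both.

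Genes that rose include those of channels, secreted proteins and enzymes of several kinds. SCNN1A, the alpha subunit of the epithelial sodium channel, was at 0.641 and 0.451 CPM in parental cells and 25.8 and 14.5 CPM in the clone (log2 fold change 5.204 ± 0.61, adjusted p = 0.000519). PRSS8, the protease prostasin that activates this channel, rose from 5.72 and 7.71 CPM to 26.6 and 28.7 CPM (log2 fold change 2.04 ± 0.23, adjusted p = 0.000355). LRG1, a secreted glycoprotein of the acute phase, went from 0.481 and 0.316 CPM to 16.01 and 10.9 CPM (log2 fold change 5.08 ± 0.55, adjusted p = 0.000274). SCNN1A and LRG1 were under 1 CPM in both parental libraries, and in none of the 3 did the groups overlap. For SCNN1A and LRG1, which were named by size, the lack of overlap was a condition of selection. CEL, a lipase best known from the pancreas whose reads can be shared with a pseudogene, rose from 0.748 and 0.631 CPM to 12.8 and 15.4 CPM (log2 fold change 4.35 ± 0.33, adjusted p = 3.35e-05). TIMP3, an inhibitor of matrix metalloproteinases, rose from 9.13 and 11.6 CPM to 91.7 and 156 CPM (log2 fold change 3.57 ± 0.25, adjusted p = 2.92e-05), and the lysosomal protease cathepsin D (CTSD) from 454 and 525 CPM to 1295 and 1971 CPM (log2 fold change 1.74 ± 0.21, adjusted p = 0.000438). Of 41 matrix protease genes 6 rose (14.6%) and 8 fell (19.5%), against 6.06% and 5.22% of all genes. MMP3 (stromelysin 1, named after its value was seen) was among those that fell, from 26.2 and 31.4 CPM to 7.25 and 5.73 CPM (log2 fold change -2.15 ± 0.34, adjusted p = 0.00178).

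Of 36 NF-kappaB pathway genes 6 rose (16.7%) and 3 fell (8.33%), the latter 0 without either resistant library and 1 without parental library 2. Of all genes 6.06% rose and 5.22% fell. CSF1, a growth factor of macrophages, rose from 16.9 and 15.3 CPM to 120.2 and 182 CPM (log2 fold change 3.23 ± 0.32, adjusted p = 0.000349). TNFAIP2 rose from 28.4 and 25.8 CPM to 135 and 126 CPM (log2 fold change 2.27 ± 0.15, adjusted p = 1.83e-05), and the adhesion molecule ICAM1 from 7.798 and 10.4 CPM to 25.5 and 28.2 CPM (log2 fold change 1.56 ± 0.24, adjusted p = 0.00202). Resistant libraries lay above parental ones in all of these. Of 27 complement and coagulation genes 7 rose and 5 fell, and complement C1S, with 87% of its transcripts in the files, was at 55.4 and 44.8 CPM in parental and 256 and 208 CPM in resistant cells (log2 fold change 2.21 ± 0.18, adjusted p = 4.38e-05). Of 50 interferon-stimulated genes 10 fell (20%) and 1 rose (2%), with a median of -0.39, but without resistant library 1 the number that fell was 6. OASL, an antiviral protein of the oligoadenylate synthetase family, fell from 201 and 144 CPM to 66.5 and 60.5 CPM (log2 fold change -1.44 ± 0.17, adjusted p = 0.0004). The one that rose (2 without resistant library 2) was the transcription factor IRF1, at 36.5 and 36.6 CPM in parental and 87.3 and 93.1 CPM in resistant cells (log2 fold change 1.303 ± 0.14, adjusted p = 0.000253).

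Genes of developmental signaling pathways passed in both directions. The shares that rose and fell were 6.12% and 12.2% in the TGF-beta list and 18.2% and 0% in the Wnt list. They were 13.8% and 6.90% in the Notch list and 16.1% and 7.14% in the neural list. Over all genes they were 6.06% and 5.22%. Of 49 genes of the TGF-beta and BMP pathway 6 fell and 3 rose (5 without resistant library 2), with a median of 0.21. Of 55 Wnt pathway genes 10 rose and none fell in edgeR (4 at an unadjusted p under 0.05 and 0 by DESeq2), with 6 higher and 1 lower without parental library 1 and 7 with an offset for GC content and length. The Wnt receptor FZD2 rose from 14.5 and 12.7 CPM to 29.6 and 32.6 CPM (log2 fold change 1.19 ± 0.21, adjusted p = 0.00262). Of 29 Notch genes 4 rose and 2 fell (1 without resistant library 1). NOTCH1, the receptor that promotes keratinocyte differentiation, was higher in the clone, at 12.3 and 14.7 CPM in parental and 34.9 and 34.95 CPM in resistant cells (log2 fold change 1.37 ± 0.15, adjusted p = 0.000253). NOTCH3 was lower, at 8.49 and 10.5 CPM in parental and 0.957 and 2.14 CPM in resistant cells (log2 fold change -2.61 ± 0.31, adjusted p = 0.000466, -3.32 without resistant library 2). The 2 receptors thus moved apart, each beyond the spread of its libraries. Of 56 neural and axon guidance genes 9 rose and 4 fell, the latter 7 without resistant library 2. The receptor tyrosine kinase EPHB2 rose from 18.7 and 23.5 CPM to 71.01 and 81.4 CPM (log2 fold change 1.85 ± 0.18, adjusted p = 0.000153), while its relative EPHA2 fell from 215 and 196 CPM to 60.5 and 66.1 CPM (log2 fold change -1.699 ± 0.14, adjusted p = 7e-05). Contactin 1 (CNTN1), a neural adhesion protein, was at 6.997 and 10.7 CPM in parental cells and 0.252 and 0.0499 CPM in the clone (log2 fold change -5.83 ± 0.46, adjusted p = 4.02e-05). This rests on 6 read pairs in the clone, and the log2 fold change was -7.33 without resistant library 1 and -5.12 without resistant library 2.

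Few genes that handle platinum passed. Of 23 transporters linked to platinum uptake or efflux 1 fell and none rose in edgeR (1 at an unadjusted p under 0.05 and 0 by DESeq2), with a median of -0.06. The share that fell was 4.35%, near the 5.22% over all genes, of which 6.06% rose. The one that fell was LRRC8A, the obligate subunit of the volume-regulated anion channel, a route by which cisplatin enters cells. It held 109 and 117 CPM in parental and 45.6 and 54.2 CPM in resistant libraries (log2 fold change -1.18 ± 0.15, adjusted p = 0.000519), with no overlap, and leaving out single libraries kept the log2 fold change between -1.32 and -1.06. In HPV+ cells LRRC8A had a log2 fold change of -0.07 ± 0.14, and the difference between the lines was -1.11 ± 0.21, adjusted p = 0.00547. Its partner LRRC8D, which determines the passage of platinum drugs, was at 40.5 and 53.1 CPM in parental and 45.5 and 45.2 CPM in resistant cells (log2 fold change -0.05 ± 0.16). The copper importer SLC31A1 (CTR1) was at 49.5 and 60.5 CPM in parental and 52.5 and 52.8 CPM in resistant cells (log2 fold change -0.06 ± 0.14). The copper exporter ATP7B was at 5.98 and 6.85 CPM in parental and 10.6 and 6.83 CPM in resistant cells (log2 fold change 0.44 ± 0.29, adjusted p = 0.289). CNGB1, a subunit of cyclic nucleotide-gated channels, showed the largest rise among the genes named by size, from 0.214 and 0.406 CPM to 30.3 and 21.4 CPM (log2 fold change 6.33 ± 0.44, adjusted p = 3.91e-05).

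Of the detoxifying enzymes, glutathione and NRF2 target genes showed no common direction. Of 52 tested 3 rose (5.77%) and 5 fell (9.62%), against 6.06% and 5.22% of all genes. The 5 that fell were AKR1C1, AKR1C2, AKR1C3, GPX2 and SLC7A11, each at or above 61.6 CPM in parental cells (AKR1C3 was named after its value was seen). SLC7A11, which imports cystine for glutathione synthesis, was at 61.6 and 76.7 CPM in parental and 25.3 and 29.3 CPM in resistant cells (log2 fold change -1.34 ± 0.17, adjusted p = 0.00057). GPX2, a glutathione peroxidase, was at 85.1 and 91.3 CPM in parental and 21.7 and 23.9 CPM in resistant cells (log2 fold change -1.95 ± 0.17, adjusted p = 8.45e-05). The aldo-keto reductase AKR1C1 was at 72.3 and 66.05 CPM in parental and 19.1 and 19 CPM in resistant cells (log2 fold change -1.86 ± 0.15, adjusted p = 4.94e-05), with the reservation that it shares long stretches of sequence with AKR1C2. The count of 5 was 5 or 6 with any 1 HPV- library left out, whereas the 3 that rose became 1 or 2, and 5 in either fit of the 4 HPV- libraries and 6 with the offset for GC content and length. Aldehyde dehydrogenases and cytochromes P450 had 8 higher (25.8%) and 3 lower (9.68%) of 31, the latter 1 with the offset for transcript length. ALDH3A1, which oxidizes aldehydes in stratified epithelia, rose from 40.8 and 35.3 CPM to 226 and 231 CPM (log2 fold change 2.59 ± 0.195, adjusted p = 3.35e-05). In HPV+ cells ALDH3A1 had a log2 fold change of -1.08 ± 0.19 (difference between the lines 3.66 ± 0.27, adjusted p = 3.6e-05).

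Few DNA repair genes passed in either direction, where 6.06% of all genes rose and 5.22% fell. Factors that act on RNA-DNA hybrids are given after them. None of 45 genes of the Fanconi anemia and homologous recombination pathways passed in edgeR or by DESeq2 when all 8 libraries were fitted, and the median was -0.24. At an unadjusted p under 0.05, which 19.8% of all genes reached in the higher and 19.5% in the lower direction, 7 were higher and 15 lower. Without parental library 2 or resistant library 2, 3 of them fell, and without either of the other HPV- libraries, or by either tool on the 4 HPV- libraries, 1 fell. None of 8 mismatch repair genes passed by either tool, while without adjustment p was under 0.05 for 1 higher and 2 lower genes. Of 27 nucleotide excision repair genes, which remove cisplatin adducts, 1 rose (2 without resistant library 2) and none fell (4 at an unadjusted p under 0.05 and 0 by DESeq2, and 1 without parental library 2). It was CDK7, a gene with 46.7% of its transcripts in the files and so of uncertain level. Of 22 genes of translesion synthesis, which copies past adducts, 1 rose, the polymerase POLI (from 8.12 and 7.44 CPM to 20.95 and 16.8 CPM, log2 fold change 1.28 ± 0.21, adjusted p = 0.00229, a call lost with the offset for transcript length), and none fell (2 at an unadjusted p under 0.05 and 0 by DESeq2, and 1 with either offset). Of 49 helicases, nucleases and other factors that act on R-loops, the RNA-DNA hybrids on which the study centered, 6 fell and none rose in edgeR (2 at an unadjusted p under 0.05 and 1 by DESeq2, and 1 without resistant library 2). The 6 R-loop factors that fell were 12.2% of their list, against 5.22% of all genes. At an unadjusted p under 0.05 in edgeR, 20 of the 49 were lower, where 19.5% of all genes were. A log2 fold change below 0 was found for 35 of the 49, with a list median of -0.26 against 0.04 over all genes. DDX39A, an RNA export helicase, fell from 230.0 and 175 CPM to 58.4 and 74.99 CPM (log2 fold change -1.601 ± 0.18, adjusted p = 0.000316). USP11, a deubiquitinase, was at 79.96 and 91.8 CPM in parental and 84.4 and 95.3 CPM in resistant cells (log2 fold change 0.06 ± 0.15).

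Genes of the damage response and of apoptosis moved in both directions. Of 38 p53 targets 5 fell (13.2%, against 5.22% of all genes) and 2 rose (5.26%, against 6.06%). The cell cycle inhibitor CDKN1A (p21) fell from 51.8 and 39.5 CPM to 11.99 and 18.6 CPM (log2 fold change -1.57 ± 0.22, adjusted p = 0.0009), and AEN, an apoptotic nuclease, from 91.5 and 72 CPM to 18.4 and 20.6 CPM (log2 fold change -2.07 ± 0.16, adjusted p = 4.02e-05). CCNG2, an atypical cyclin of resting cells, rose from 5.18 and 6.09 CPM to 26.3 and 22.2 CPM (log2 fold change 2.101 ± 0.17, adjusted p = 5.21e-05). Of 34 BCL2 family and caspase genes 3 rose and 2 fell, the latter 0 without parental library 1 or resistant library 1. Those that rose were 8.82% and those that fell 5.88% of the list, near the 6.06% and 5.22% over all genes. The 3 that rose encode BH3-only proteins, which promote cell death, a group made after their values were seen. BCL2L11 (BIM) was at 8.44 and 14.2 CPM in parental and 43.3 and 42.6 CPM in resistant cells (log2 fold change 1.92 ± 0.28, adjusted p = 0.00143). BMF was at 0.481 and 0.406 CPM in parental and 3.17 and 9.77 CPM in resistant cells (log2 fold change 3.86 ± 0.61, adjusted p = 0.00165), with resistant libraries that stood apart from each other but both above parental cells (log2 fold change 4.45 without resistant library 1 and 2.82 without resistant library 2). HRK was at 0.534 and 0.631 CPM in parental and 1.56 and 1.75 CPM in resistant cells (log2 fold change 1.49 ± 0.31, adjusted p = 0.00644), and did not pass when only the 4 HPV- libraries were fitted.

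Of 34 G1 control genes 8 fell (23.5%, against 5.22% of all genes) and 1 rose. Without resistant library 1 the number that fell was 3, and the number that rose was 3 without parental library 1 and 2 without resistant library 2. CDK2, the kinase of the G1 to S transition, fell from 174 and 165 CPM to 62.8 and 64.02 CPM (log2 fold change -1.42 ± 0.13, adjusted p = 0.000119), and its partner CCNE2 (cyclin E2) from 30.7 and 33.4 CPM to 13.8 and 12.8 CPM (log2 fold change -1.27 ± 0.17, adjusted p = 0.000763). Both lie in stretches of neighboring genes that were lower together, as given below. MXD4, an antagonist of MYC, rose from 15.3 and 12.9 CPM to 43.3 and 34.6 CPM (log2 fold change 1.47 ± 0.17, adjusted p = 0.0004). Of 58 DNA replication genes 6 fell (12 without resistant library 2) and none rose in edgeR (0 at an unadjusted p under 0.05 and 0 by DESeq2), with a median of -0.51. The helicase subunit CDC45 was reduced from 123 and 76.96 CPM to 30.9 and 32.6 CPM (log2 fold change -1.65 ± 0.205, adjusted p = 0.000508), whereas PCNA, the sliding clamp, was at 559 and 625 CPM in parental and 510.0 and 566 CPM in resistant cells with overlapping groups (log2 fold change -0.14 ± 0.15). Of 62 mitosis genes 3 fell (7 without resistant library 2) and none rose in edgeR (0 at an unadjusted p under 0.05 and 0 by DESeq2), with a median of -0.405. The mitotic activator CDC20 fell from 275 and 234 CPM to 85.5 and 122 CPM (log2 fold change -1.298 ± 0.18, adjusted p = 0.000818). The share that fell was 10.3% in the replication list and 4.84% in the mitosis list, against 5.22% of all genes. Below 0 were 55 of the 58 replication and 57 of the 62 mitosis genes. At an unadjusted p under 0.05 in edgeR, 37 and 32 of them were lower, where 19.5% of all genes were. The share of all genes below 0 was not counted, and the median over all genes was 0.04. Fold changes also moved with expression level, with a median of 0.29 in the quartile of lowest mean level and -0.12 in the highest. In that highest quartile 78 genes rose and 225 fell. The part of expression level in the counts per list was not tested.

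In lipid metabolism, 6 of 32 genes of cholesterol synthesis and its regulation rose and none fell in edgeR (2 at an unadjusted p under 0.05 and 0 by DESeq2, and 1 without resistant library 2). The number that rose was 4 without parental library 2 or resistant library 1. The 6 were 18.75% of the list, where 6.06% of all genes rose. MYLIP, which degrades the LDL receptor, rose from 9.24 and 11.5 CPM to 46.9 and 32.01 CPM (log2 fold change 1.93 ± 0.24, adjusted p = 0.000507), and TM7SF2, a sterol reductase, from 7.05 and 6.09 CPM to 23.3 and 17.3 CPM (log2 fold change 1.63 ± 0.23, adjusted p = 0.00102). The 2 genes do not act the same way, since MYLIP lowers sterol uptake and TM7SF2 makes sterols.

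Genes of basal adhesion moved in both directions. In their list 28% rose and 20% fell, against 6.06% and 5.22% of all genes. Of 25 genes of hemidesmosomes, integrins and laminins 7 rose and 5 fell, with 3 higher without parental library 1, 4 higher without resistant library 1 and 3 lower without parental library 2. COL17A1, a hemidesmosomal collagen of basal keratinocytes, fell from 1731 and 1941 CPM to 795 and 910.4 CPM (log2 fold change -1.11 ± 0.17, adjusted p = 0.00138). ITGA1, the collagen-binding integrin alpha 1, rose from 2.72 and 3.61 CPM to 9.27 and 9.67 CPM (log2 fold change 1.57 ± 0.23, adjusted p = 0.00108), and the basement membrane laminin chain LAMA5 from 401 and 414 CPM to 886 and 1274 CPM (log2 fold change 1.41 ± 0.19, adjusted p = 0.000702), but neither passed with the offset for transcript length. Of 31 regulators of epithelial-mesenchymal transition and mesenchymal markers 7 rose and 2 fell (4 without resistant library 2), with CDH2, given above, and the collagen chain COL6A2 (16.8 and 12.8 CPM in parental and 32.8 and 44.3 CPM in resistant cells, log2 fold change 1.38 ± 0.21, adjusted p = 0.00129) among those that rose.

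**Figure D3:**
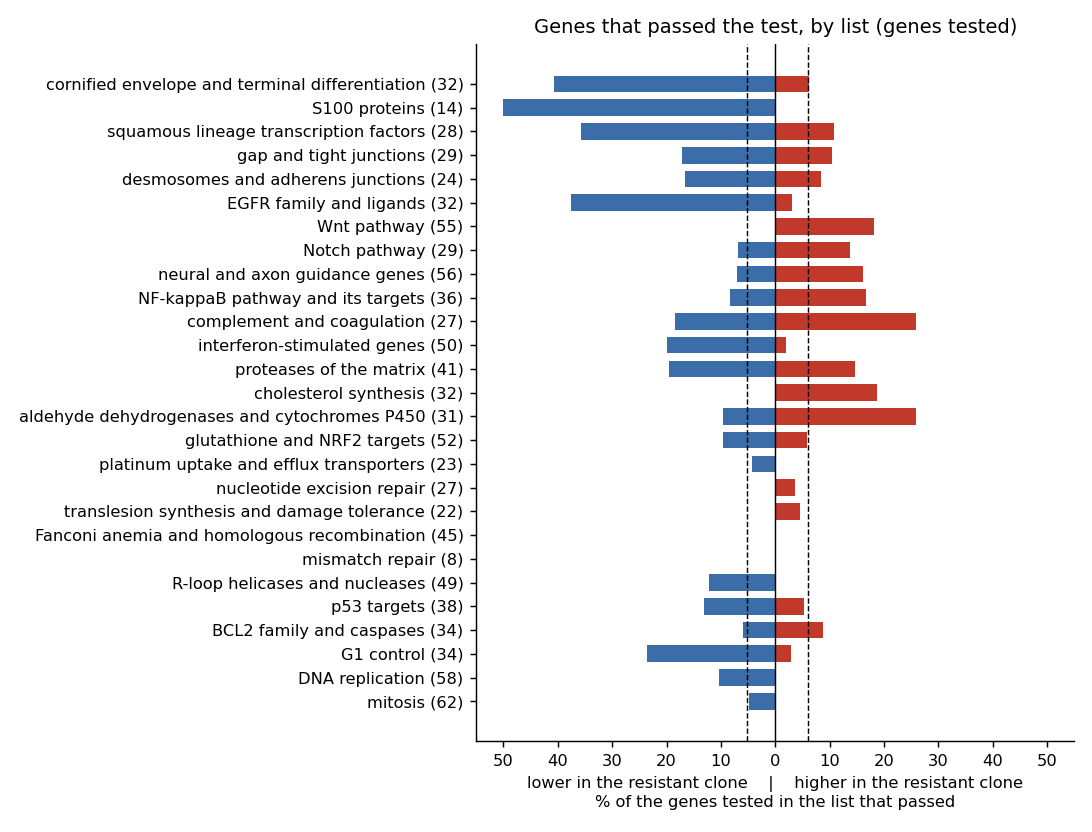
Share of the tested genes of 27 lists that rose (red, to the right) or fell (blue, to the left) in the HPV- resistant clone, with the number of genes tested in parentheses and dashed lines at the shares over all genes (6.06% higher, 5.22% lower). The S100 (50% lower), cornified envelope (40.6%), EGFR (37.5%) and squamous factor (35.7%) lists reach furthest to the left, and repair and platinum transport lists stay near or inside the lines.

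Some of the changes followed position in the genome. Genes with at least 1 CPM were ordered along each chromosome (GENCODE coordinates on GRCh38), and the running median of the log2 fold change of 25 neighbors was taken, by a rule set after the data were seen. Of 12182 windows, 142 (1.17%) had a median of 0.7 or more in size, and they merged into 10 stretches, 7 lower and 3 higher. Each stretch was trimmed to its outermost genes that moved by 0.5 or more on the log2 scale in its direction. The one with the most genes lay on the short arm of chromosome 9 (chr9:21455484-35815354), where 56 of 63 genes were lower in the clone, 17 of them passed (26.98%, against 5.22% of all genes), and the median was -0.81. The stretches were chosen on these same fold changes, so their counts and medians are a description only. In the HPV+ clone the same genes had a median of -0.06. The stretch holds the tumor suppressor gene CDKN2A, in a region commonly lost in squamous carcinoma. ELAVL2, a neuronal RNA-binding protein, lies there, and had 9.51 and 13.1 CPM in parental and 0.302 and 0 CPM in resistant cells (log2 fold change -6.18 ± 0.56, adjusted p = 0.000161). This rests on 6 read pairs in resistant library 1, and the fitted log2 fold change was -11.05 without that library and -5.21 without the other. RIGI, the RNA sensor of the interferon response, lies there too and fell from 118 and 169 CPM to 56.96 and 61.2 CPM (log2 fold change -1.28 ± 0.18, adjusted p = 0.00108), so the interferon list shares a member with it.

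On chromosome 12 (chr12:54016931-57095476), which holds CDK2, 54 of 60 genes were lower, 23 passed, and the median was -0.75, against -0.06 in the HPV+ clone. On chromosome 3 (chr3:93980139-108589644) 27 of 31 genes were lower with a median of -0.78 and 12 passed. On chromosome 11 (chr11:65714005-66345125) 20 of 25 genes were lower with a median of -0.72 and 8 passed, among them the neighbors FOSL1 and OVOL1. Both lay far below the median of their stretch. On chromosome 17 (chr17:6628619-7949920) 31 of 39 genes were lower with a median of -0.58, and there the HPV+ clone was lower as well, at -0.43. The other stretches that were lower lay on chromosome 8. The 3 that were higher lay on chromosomes 1, 5 and 17, with medians of 0.79, 0.43 and 0.63. Those on chromosomes 1 and 5 hold the repeated NBPF and protocadherin genes, whose reads are hard to assign. Both resistant libraries showed the shift on chromosomes 9 and 12, at -0.80 and -0.76 and at -0.75 and -0.74 relative to the parental mean. The stretches were chosen on these same libraries, so this is a description and no replication. DNA copy number was not measured in these libraries, and its part in the shifts was not tested. Outside the stretches, 12 of 31 cornified envelope genes, 11 of 29 EGFR-list genes and 5 of 30 G1 control genes fell.

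**Figure D4:**
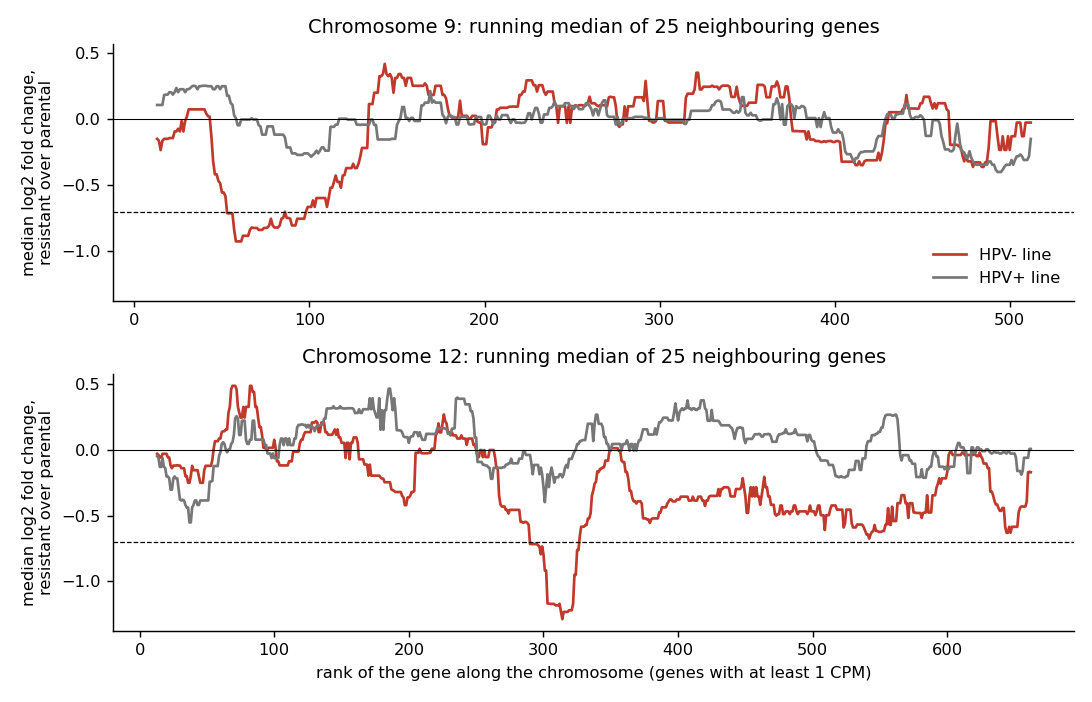
Running median over 25 neighboring genes of the log2 fold change of resistant over parental cells along chromosomes 9 and 12, by gene rank, in the HPV- line (red) and the HPV+ line (grey). The dashed line marks -0.7. The red line crosses it on the short arm of chromosome 9 and in the middle of chromosome 12, where the grey line does not.

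Transcript length moved with the fold changes. By quartile of length, from shortest to longest, the median log2 fold change was -0.16, -0.0016, 0.06 and 0.22. Between the 2 parental libraries it was -0.25, -0.04, 0.12 and 0.30 (library 2 over 1), and between the 2 resistant libraries 0.14, 0.08, 0 and -0.10. A trend of this kind was thus as large between libraries of 1 group as between groups. With an offset for GC content and length, 13 cornified envelope genes, 13 EGFR-list genes, 10 squamous factors and 7 G1 control genes fell, against 13, 12, 10 and 8 without it. Other lists moved more. The S100 genes that fell went from 7 to 5, and their median from -1.32 to -0.94. R-loop factors that fell went from 6 to 4 and BCL2 family and caspase genes from 2 to 0, while DNA replication genes went from 6 to 9.

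**Figure D5:**
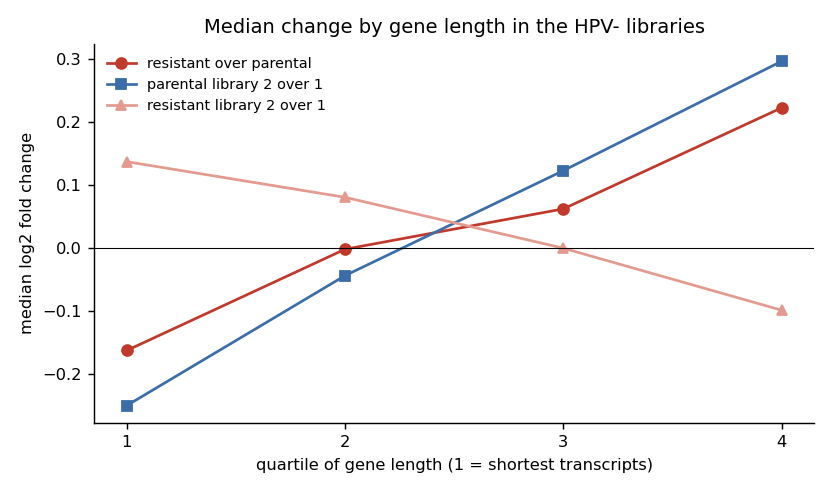
Median log2 fold change by quartile of gene length (quartile 1 holds the shortest transcripts) for resistant over parental cells and for library 2 over library 1 within each HPV- group. The parental pair runs from -0.25 to 0.30, further than the comparison of the groups, and the resistant pair runs the other way.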

How the data were processed

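RNA of HPV- parental cells and of the HPV- resistant clone was measured in 2 polyA libraries each, beside 4 libraries of the HPV+ line. Per the labels, Salmon and build GRCh38 were used by the authors, who deposited estimated counts of read pairs per transcript with no scaling between libraries, beside a length-scaled level (TPM). Which Salmon version and transcript annotation they used is not given in the sources used here. Of 187432 transcripts, 172550 (92.1%) matched GENCODE release 44 by ID without version, and the 14882 others, with 4.33 to 5.13% of each library's counts, were left out. The estimated counts deposited were summed per gene and rounded. The deposited TPM values entered only the transcript shares, the transcript length offset and the weights of transcripts in each gene's length and GC content. Those gene values define the length quartiles and the offset for GC content and length. Genes with only part of their transcripts in the files (1816 of those tested) may be under-counted.

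All 8 libraries entered 1 fit in edgeR 4.0.16 (R 4.3.3, limma 3.58.1) with TMM factors, a coefficient for each group, genes filtered at the default of edgeR and robust quasi-likelihood tests. The Benjamini-Hochberg adjustment covered all 15221 genes. For the difference between the lines, the contrast of both changes (interaction) was tested. The common dispersion was 0.0326, with 4 residual degrees of freedom. DESeq2 1.42.0, other scaling factors, filters, offsets for length and GC content, the replicate number as a block and the omission of each library were the alternatives. The fit was tested on simulated counts with known changes. Intervals and floors cover counting error only. With 20250246 to 25301746 read pairs per HPV- library, changes in genes of a few read pairs are not resolved.

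The comparison, lists and rules for named genes were chosen with earlier results of these data known. Genes named by rule were the 12 largest changes in each direction among passing protein-coding genes with at least 5 CPM in the higher group, separated libraries and every transcript in the files, without keratins, ribosome biogenesis and respiratory chain genes, up to 4 passing members of each list by smallest p (or its most abundant members where fewer than 2 passed), the platinum transporters, USP11 and CNGB1, and abundant members of the stretches. Not all are printed, some genes are not reported here, and those outside the rules are said to be named after their values were seen. Promoter sequences are from RefSeq (GRCh38.p14). Y-linked and X-inactivation genes were not considered. Tables and plots were made with matplotlib 3.10.9 and pandas 2.3.3 on Python 3.11.15.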

Additional observations from a re-analysis of the deposited data

Results flagged for a closer look

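For the genes below the change on resistance differed between the lines by the interaction test of edgeR (Benjamini-Hochberg adjusted p under 0.05 and a difference beyond 1 on the log2 scale). Each difference is the log2 fold change in the HPV- line minus that in the HPV+ line. Line, HPV status and cisplatin dose cannot be told apart. In ABCA12, BMF, CA2, CNGB1, CNTN1, CSF1, ELAVL2, ELF3, ICAM1, KRTDAP, LRG1, LRRN2, PI3, PLCB1, RHCG, S100A9 and SPRR1B at least 1 group of libraries had a mean under 0.25 CPM, so the fitted values depend on the prior count and are imprecise as sizes.

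In a first set the gene passed in both lines, in opposite directions. For ALDH3A1 the difference was 3.66 (2.59 in HPV- and -1.08 in HPV+ cells). AREG differed by -6.43, with -2.53 in the HPV- and 3.901 in the HPV+ line. In CSTA it was -3.996, from -1.72 (HPV-) and 2.28 (HPV+). For DSG1 the difference was -5.77 (-3.49 in HPV- and 2.28 in HPV+ cells). ELF3 differed by 10.55, with 4.07 in the HPV- and -6.48 in the HPV+ line. In F3 it was -4.43, from -1.97 (HPV-) and 2.46 (HPV+). For HBEGF the difference was -5.15 (-1.998 in HPV- and 3.15 in HPV+ cells). MXD4 differed by 2.93, with 1.47 in the HPV- and -1.47 in the HPV+ line. In OASL it was -2.73, from -1.44 (HPV-) and 1.29 (HPV+). For PLAUR the difference was -3.55 (-1.55 in HPV- and 2.003 in HPV+ cells). RIGI differed by -2.603, with -1.28 in the HPV- and 1.33 in the HPV+ line. In SPRR1B it was -14.03, from -11.91 (HPV-) and 2.12 (HPV+). For TM7SF2 the difference was 2.95 (1.63 in HPV- and -1.32 in HPV+ cells). ZNF750 differed by -7.78, with -4.62 in the HPV- and 3.17 in the HPV+ line.

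In a second set the gene passed in the HPV- line and not in the HPV+ line. For ABCA12 the difference was -5.43 (-5.002 in HPV- and 0.42 in HPV+ cells). AEN differed by -2.36, with -2.07 in the HPV- and 0.29 in the HPV+ line. In AKR1C1 it was -2.01, from -1.86 (HPV-) and 0.15 (HPV+). For BCL2L11 the difference was 1.41 (1.92 in HPV- and 0.51 in HPV+ cells). BMF differed by 5.796, with 3.86 in the HPV- and -1.94 in the HPV+ line. In C1S it was 1.904, from 2.21 (HPV-) and 0.31 (HPV+). For CCNG2 the difference was 2.78 (2.101 in HPV- and -0.68 in HPV+ cells). CDC45 differed by -1.54, with -1.65 in the HPV- and -0.12 in the HPV+ line. In CDH2 it was 3.603, from 2.96 (HPV-) and -0.65 (HPV+). For CDKN1A the difference was -1.72 (-1.57 in HPV- and 0.14 in HPV+ cells). CEL differed by 4.88, with 4.35 in the HPV- and -0.53 in the HPV+ line. In CNGB1 it was 8.51, from 6.33 (HPV-) and -2.18 (HPV+). For CNTN1 the difference was -6.62 (-5.83 in HPV- and 0.78 in HPV+ cells). CSF1 differed by 4.68, with 3.23 in the HPV- and -1.45 in the HPV+ line. In CTSD it was 2.57, from 1.74 (HPV-) and -0.83 (HPV+). For DUSP6 the difference was -1.77 (-1.58 in HPV- and 0.18 in HPV+ cells). DUSP7 differed by -1.096, with -1.296 in the HPV- and -0.200 in the HPV+ line. In ELAVL2 it was -6.67, from -6.18 (HPV-) and 0.49 (HPV+). For EPHA2 the difference was -1.68 (-1.699 in HPV- and -0.02 in HPV+ cells). EPHB2 differed by 1.800, with 1.85 in the HPV- and 0.05 in the HPV+ line. In ETV4 it was -2.73, from -2.72 (HPV-) and 0.01 (HPV+). For FOSL1 the difference was -4.09 (-2.998 in HPV- and 1.09 in HPV+ cells). FZD2 differed by 1.79, with 1.19 in the HPV- and -0.597 in the HPV+ line. In GJA1 it was -2.59, from -2.34 (HPV-) and 0.26 (HPV+). For GPX2 the difference was -2.52 (-1.95 in HPV- and 0.57 in HPV+ cells). ICAM1 differed by 5.101, with 1.56 in the HPV- and -3.54 in the HPV+ line. In IL18 it was -6.36, from -6.99 (HPV-) and -0.63 (HPV+). For IRF1 the difference was 1.06 (1.303 in HPV- and 0.24 in HPV+ cells). ITGA1 differed by 1.698, with 1.57 in the HPV- and -0.12 in the HPV+ line. In KRTDAP it was -11.28, from -7.33 (HPV-) and 3.95 (HPV+). For LAMA5 the difference was 2.12 (1.41 in HPV- and -0.72 in HPV+ cells). LRG1 differed by 5.74, with 5.08 in the HPV- and -0.67 in the HPV+ line. In LRRC8A it was -1.11, from -1.18 (HPV-) and -0.07 (HPV+). For LRRN2 the difference was 4.81 (4.601 in HPV- and -0.21 in HPV+ cells). MYLIP differed by 2.24, with 1.93 in the HPV- and -0.32 in the HPV+ line. In NOTCH1 it was 1.103, from 1.37 (HPV-) and 0.27 (HPV+). For NOTCH3 the difference was -1.89 (-2.61 in HPV- and -0.72 in HPV+ cells). OVOL1 differed by -2.78, with -2.68 in the HPV- and 0.11 in the HPV+ line. In PI3 it was -10.06, from -8.01 (HPV-) and 2.05 (HPV+). For PKP1 the difference was -1.51 (-2.13 in HPV- and -0.62 in HPV+ cells). PLCB1 differed by -5.17, with -5.14 in the HPV- and 0.02 in the HPV+ line. In RHCG it was -6.997, from -6.43 (HPV-) and 0.57 (HPV+). For S100A9 the difference was -8.17 (-5.43 in HPV- and 2.74 in HPV+ cells). SCNN1A differed by 5.01, with 5.204 in the HPV- and 0.19 in the HPV+ line. In SLC7A11 it was -1.77, from -1.34 (HPV-) and 0.43 (HPV+). For TIMP3 the difference was 2.97 (3.57 in HPV- and 0.600 in HPV+ cells).

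In the last set the gene passed in both lines in the same direction, to a different extent. For CA2 the difference was -4.86 (-6.04 in HPV- and -1.18 in HPV+ cells). CDH1 differed by -1.17, with 1.01 in the HPV- and 2.18 in the HPV+ line. In DLC1 it was 2.57, from 5.28 (HPV-) and 2.71 (HPV+). For GJB6 the difference was -5.99 (-7.22 in HPV- and -1.23 in HPV+ cells). KLF4 differed by 1.49, with -1.27 in the HPV- and -2.77 in the HPV+ line. In NRG1 it was -1.29, from -2.31 (HPV-) and -1.02 (HPV+).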

How the results depend on the processing

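The counts over all genes held within 1.5 times under RLE or upper-quartile factors, both filters on low counts, DESeq2 on 8 or 4 libraries, edgeR on the 4 HPV- libraries and the offsets. With no minimum fold change, 1942 genes rose and 2139 fell (4081 in all), and 1242 were lower in the difference between the lines. Leaving out 1 library gave 613 to 988 higher, 567 to 1114 lower and 1180 to 1904 in all for the HPV- comparison, and 588 to 1110 higher, 605 to 906 lower and 1193 to 1998 in all for the difference. The low 613 came without HPV- resistant library 1 and the 588 without HPV+ parental library 1. The share of calls that were higher was 53.7%, and 41.5% without HPV- parental library 2.

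Equal replicate numbers did not pair the samples, since deviations of equally numbered libraries correlated at -0.07 (HPV-) and -0.01 (HPV+) across genes. With the replicate number as a block, 725 genes rose and 699 fell, and 671 were higher and 591 lower in the difference.

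Of 83 genes followed, none reversed and 7 lost their call under some setting, in 17 of 1659 values. These were CDH1, HRK, ITGA1, LAMA5, LCN2 (log2 fold change 5.64 without parental library 1 and 4.94 without parental library 2), POLI and SPRY1. Of 1140 counts per list, 130 moved by over 1.5 times. The causes were not tested. With 2 libraries a group, a p that missed the threshold does not show that a gene stayed the same, and genes of a few read pairs are not resolved at this depth.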

Other observations

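Immediate early genes, the first transcripts made after a growth signal, had 7 lower and 1 higher of 30, with a median of 0.02. Without resistant library 2 the counts were 4 lower and 3 higher, and the higher count was 0 without any of the other HPV- libraries and by DESeq2 on 8 libraries. ATF3, a stress-induced factor, was at 4.33 and 2.93 CPM in parental and 1.21 and 0.897 CPM in resistant cells (log2 fold change -1.77 ± 0.27). EGR1, a direct ERK target, did not pass, at 193 and 257 CPM in parental and 647 and 443 CPM in resistant cells (log2 fold change 1.28 ± 0.56, named after its value was seen). Of 29 glycolysis genes none passed in edgeR or by DESeq2 when all 8 libraries were fitted (1 rose by either tool on the 4 HPV- libraries, 6 fell without resistant library 2 and 2 without parental library 2), while without adjustment p was under 0.05 for 3 higher and 15 lower genes, and the median was -0.41. Of 17 genes of MHC class I and peptide loading 3 rose (5 without parental library 1), among them HLA-B (7.64 and 7.21 CPM in parental and 40.9 and 31.4 CPM in resistant cells, log2 fold change 2.28 ± 0.25), whose reads can be shared with related HLA genes, and none fell (1 at an unadjusted p under 0.05 and 0 by DESeq2, and 1 without resistant library 2).

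Among 6112 genes with at least 400 read pairs in every HPV- library, 50 (0.818%) had a transcript whose share of the gene's level (TPM) differed by 25 percentage points or more between every parental and every resistant library, and 3 of the 50 also passed as genes. These shares are estimates from the quantification, without a test. For a transcript of the ribosomal protein gene RPS24, parental cells had a share of 70.1 and 63.6% and resistant cells one of 8.001 and 12.2%. The share of a transcript of CBX5, which encodes the heterochromatin protein HP1 alpha, was 32.5 and 36.5% in parental and 76.9 and 86.2% in resistant cells. For a transcript of PSMB10, an immunoproteasome subunit, it was 35.4 and 38.975% and then 97.1 and 97.9%. In each the groups were far apart and the libraries of a group close together.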
